A study of Mus musculus with 6 samples.

Results

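Transcripts of 38 genes of the cell division cycle were followed in mouse brain, 13 that act in DNA replication (Mcm2 to Mcm7, Pcna, Rrm1, Rrm2, Tyms, Ccne1, Ccne2 and Cdc6, called S phase genes here) and 25 others, most of which act between the end of replication and the end of mitosis (called G2/M genes). The genes were chosen by name, and every probe set (a group of short probes against 1 transcript) that the platform annotation assigns to 1 of these symbols and no other was taken. That gave 85 of 45037 probe sets and 37 of 18193 measured genes, all 13 S phase genes with 34 probe sets and 24 of the G2/M genes with 51. Ccnb1, the main mitotic B-type cyclin, had no such probe set and was not analysed here.

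The study compared brains without Pofut1, the enzyme that adds O-linked fucose to Notch receptors, with brains of 2 kinds of control, on 6 one-colour oligonucleotide arrays. All mice were C57/Bl6 at 2 months of age, and each group had 2 arrays. The knockout brains carried the Nestin-Cre transgene, in which the Nestin promoter and enhancer drive Cre recombinase in neural progenitors, together with 2 floxed Pofut1 alleles. The NestinCre control carried the transgene without floxed alleles, and the Flox control carried the floxed alleles without Cre. Cells that do not descend from Nestin-expressing progenitors, such as microglia, therefore keep Pofut1 in this model, and Cre is shared by the knockout and the NestinCre control but not by the Flox control.

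Cells that divide express these genes in 2 waves. E2F transcription factors switch on the replication genes at the entry to S phase. The DREAM complex keeps the mitotic genes silent in resting cells, and MuvB with B-Myb and FoxM1 activates them late in the cycle. This control of the mitotic genes runs largely through CHR elements and CCAAT boxes near the start site. In the adult mouse brain most cells are neurons that no longer divide, and division is largely limited to progenitors of the subventricular zone and the hippocampal dentate gyrus, oligodendrocyte precursors, microglia and vascular cells.

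Values are log2 of the deposited intensity, and where a gene had several probe sets the one with the highest mean over the 6 arrays stands for it. Array medians lay between 7.32 and 7.36. Pofut1 itself, at its brightest probe set, was at 9.84 and 9.77 in the NestinCre control, 9.95 and 9.81 in the Flox control, and 9.25 and 9.44 in the knockout, a log2 difference of -0.50 (SE 0.08; limma adjusted p = 0.211), so both knockout arrays were below all controls; whether its probes lie in the deleted part is not known. Xist and Eif2s3y, which mark female and male mice, gave 1 male array in the NestinCre control (replicate 2) and 1 in the knockout (replicate 1), and 4 female arrays. The brain markers Snap25 (neurons) and Mbp (myelin) were bright on every array, at 13.03 to 13.13 and 13.26 to 13.38, and the 5 measured myelin markers were all below 0 in the knockout against both controls, with a median of -0.05. Gfap, an astrocyte filament gene, averaged 11.06 ± 0.09 (SD, n = 2) in the NestinCre control, 11.18 ± 0.03 in the Flox control and 11.98 ± 0.12 in the knockout, and both knockout arrays were above all controls. Of 6 astrocyte markers 2 were above 0, Gfap by 0.86 (SE 0.07; limma adjusted p = 0.0890) and Aqp4 by 0.25 (SE 0.06), and Slc1a2 was at -0.23 (SE 0.05) and Slc1a3 at -0.19 (SE 0.06). Of 6 neuron markers 1 was above 0, with a median of -0.08, and the part of these markers in the cell cycle values was not tested. The pituitary hormone transcript Prl stood at 7.28 and 9.58 on the Flox control arrays and at 5.39 to 5.77 on the other arrays, and Gh at 7.87 and 9.40 against 5.84 to 6.91. Whether tissue dissected with the Flox brains moved any cell cycle gene was not tested. The differences from the NestinCre control, given further on, do not use the means of those arrays, but their standard errors and p-values do use their spread. In RNA from whole tissue, fewer cells of a type and less RNA per cell cannot be told apart.

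Against both controls together, the G2/M genes were mostly higher in the knockout brains and the S phase genes mostly lower, by small amounts. Of the 24 G2/M genes, 22 had a log2 difference above 0 and the median difference was 0.23, where 7396 of all 18193 genes (40.7%) were above 0 and their median was -0.02. Of the 13 S phase genes, 3 were above 0 and the median was -0.10, but against the NestinCre control alone 6 of 13 were above 0. No member gene passed the test across all probe sets: limma with Benjamini-Hochberg adjustment called 7 of 45037 probe sets, or 0.0155%, none of them among the 85, and the smallest adjusted p of a member probe set was 0.176.

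At an unadjusted p under 0.05 in limma, 8 of 24 G2/M genes were higher, against 4.16% of all genes, and none was lower. Among the S phase genes 1 of 13 was lower, against 6.45% of all genes, and none was higher. Both knockout arrays lay above all 4 control arrays for 12 of the G2/M genes, against 7.23% of all genes, and below all 4 for 2 of the S phase genes, Mcm4 and Mcm5, against 10.9%. Over all probe sets rather than 1 per gene, 42 of 51 G2/M probe sets were above 0 and 12 were higher at an unadjusted p under 0.05, where 6.04% of all probe sets were higher at that level and 5.08% were lower. Both counts at an unadjusted p under 0.05 changed when single arrays were left out, and the G2/M count fell without NestinCre control replicate 1. The share of all genes in those fits is not given, so such counts have no background to be set against.

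**Figure D1:**
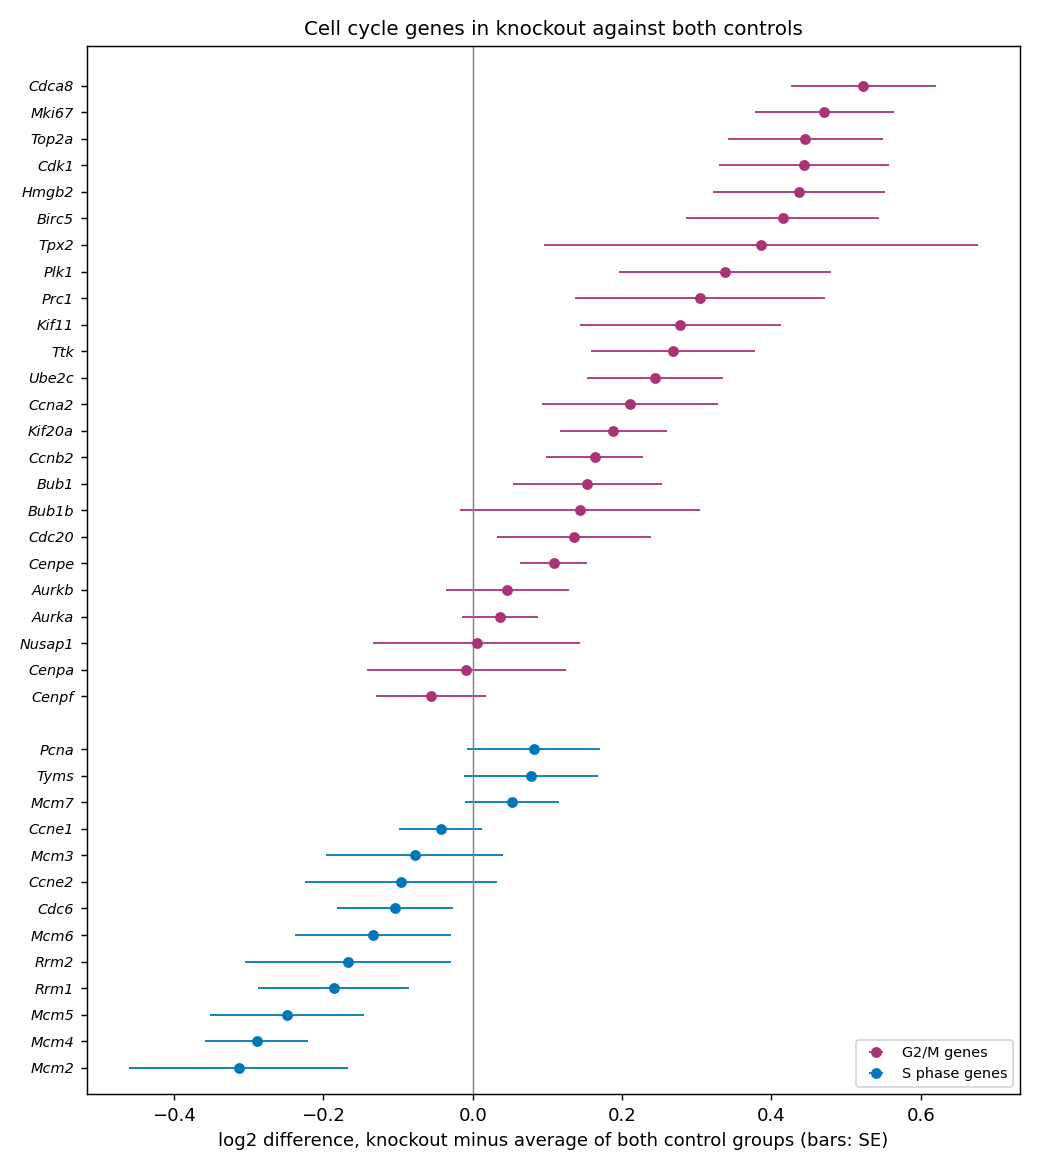
The horizontal axis is the log2 difference between the knockout mean and the average of both control means for each of 37 genes, and bars are standard errors from limma. G2/M genes (purple) run from -0.06 for Cenpf to 0.52 for Cdca8, with 22 of 24 above 0, and S phase genes (blue) run from -0.31 for Mcm2 to 0.08 for Pcna, with 3 of 13 above 0.

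The G2/M genes were also higher array by array, and the S phase genes were not separated. For each gene the mean over the 6 arrays was subtracted, and the median over the G2/M genes was then 0.15 and 0.14 on the knockout arrays, -0.18 and -0.07 on the NestinCre control arrays, and -0.09 and -0.02 on the Flox control arrays. Both knockout arrays stood above every control array, and 21 of 24 G2/M genes were above their own mean on each of them. For the S phase genes the median was -0.16 and -0.0043 in the knockout, -0.07 and -0.01 in the NestinCre control, and 0.18 and 0.06 in the Flox control. Here knockout replicate 1 was the lowest of all, knockout replicate 2 lay between the NestinCre and Flox arrays, and the groups overlapped. Without knockout replicate 1 the median difference of the S phase genes was -0.04, and without knockout replicate 2 it was -0.22.

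The promoters of the 2 classes carry different letters, and a few are shown here because most of the G2/M genes were above 0 in the knockout while most of the S phase genes were not. RefSeq promoters of GRCm38.p6, 250 bases before to 50 bases after the annotated start, were found for 32 of the 38 genes. Aurkb, Tpx2, Ccna2, Ccne2, Mcm4 and Kif20a were not matched. The CHR was searched as TTTGAA or TTCGAA, the CCAAT box as CCAAT, and an E2F site as TTTGGCGC, TTTCGCGC, TTTGCCGC or TTTCCCGC, each on both strands. A CHR match was present in 17 of 21 G2/M genes (81.0%) and 2 of 11 S phase genes (18.2%), against 21.7% of 27025 genes. CCAAT was present in 19 of 21 (90.5%) and 8 of 11 (72.7%), against 41.1%, and an E2F match in 1 of 21 and 5 of 11 (45.5%), against 2.6% of all genes. Among G2/M genes with a measured level, the 17 with a CHR match had a median log2 difference of 0.27, with 15 above 0, and the 3 without one had 0.11, with all 3 above 0. Those 3 were Birc5 (0.42), Cenpe (0.11) and Nusap1 (0.01). Among S phase genes, the 2 with a CHR match had a median of -0.13, with 1 above 0, and the 9 without one had -0.10, with 2 above 0. Whether a CHR match goes with the difference was not tested. These letters are a description of the sequence and not evidence that a factor binds.

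The following stretches are the 170 bases before the start, 5′ to 3′ on the gene's strand, with every match in capitals, and matches that overlap run together. They show the 4 G2/M genes Mki67 (chr7:135716380-135716549, minus strand), Top2a (chr11:99024190-99024359, minus strand), Cdk1 (chr10:69352913-69353082, minus strand) and Ube2c (chr2:164769759-164769928, plus strand), and the S phase genes Mcm5 (chr8:75109339-75109508, plus strand) and Mcm6 (chr1:128359706-128359875, minus strand).
Mki67: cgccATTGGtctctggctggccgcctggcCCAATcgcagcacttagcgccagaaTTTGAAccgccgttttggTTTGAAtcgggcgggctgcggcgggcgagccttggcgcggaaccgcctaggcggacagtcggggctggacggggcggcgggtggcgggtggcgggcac
Top2a: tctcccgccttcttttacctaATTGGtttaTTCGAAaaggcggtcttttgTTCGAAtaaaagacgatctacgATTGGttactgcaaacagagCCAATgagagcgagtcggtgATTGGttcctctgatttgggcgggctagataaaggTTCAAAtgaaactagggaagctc
Cdk1: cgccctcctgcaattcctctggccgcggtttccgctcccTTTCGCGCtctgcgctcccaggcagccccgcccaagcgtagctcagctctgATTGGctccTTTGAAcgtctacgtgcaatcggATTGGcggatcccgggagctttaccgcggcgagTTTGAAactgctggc
Ube2c: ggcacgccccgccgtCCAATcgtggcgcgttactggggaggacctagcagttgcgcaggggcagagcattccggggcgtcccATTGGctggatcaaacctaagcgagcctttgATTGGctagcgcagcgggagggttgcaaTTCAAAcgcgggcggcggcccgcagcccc
Mcm5: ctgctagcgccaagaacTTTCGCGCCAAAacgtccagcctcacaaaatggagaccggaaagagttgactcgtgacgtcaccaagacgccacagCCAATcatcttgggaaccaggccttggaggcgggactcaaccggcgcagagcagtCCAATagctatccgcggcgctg
Mcm6: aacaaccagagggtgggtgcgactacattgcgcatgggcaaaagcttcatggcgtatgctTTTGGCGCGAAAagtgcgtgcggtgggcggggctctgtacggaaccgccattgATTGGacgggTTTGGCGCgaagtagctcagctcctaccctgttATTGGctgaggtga

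In these stretches Mki67 has 2 CHR matches and 2 CCAAT boxes, and Top2a has 3 and 4. Cdk1 has 2 CHR matches, 2 CCAAT boxes and 1 E2F match, and Ube2c has 1 CHR match and 3 CCAAT boxes. Mcm5 has no CHR match, 2 CCAAT boxes and 2 overlapping E2F matches, and Mcm6 has no CHR match, 2 CCAAT boxes and 3 E2F matches, of which 2 overlap.

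At their brightest probe sets, the chromatin genes that are used as labels of dividing cells were among the highest. Mki67 encodes Ki-67, which coats mitotic chromosomes and marks cycling cells, and its log2 intensity was 6.52 and 6.81 in the NestinCre control, 6.79 and 6.75 in the Flox control, and 7.17 and 7.21 in the knockout. Both knockout arrays were above all 4 controls, by 0.47 on average (SE 0.09; limma adjusted p = 0.241), a 1.39-fold difference in intensity. Top2a, the topoisomerase that untangles replicated chromosomes, was at 6.08 and 6.41, 6.45 and 6.48, and 6.83 and 6.77 in the same order. The knockout arrays were again the highest, by 0.45 (SE 0.10; limma adjusted p = 0.275), and NestinCre control replicate 1 was the lowest array. Hmgb2, a DNA-bending chromatin protein abundant in proliferating cells, was at 7.39 and 7.74, 7.44 and 7.6, and 7.95 and 8.01, with both knockout arrays on top by 0.44 (SE 0.12; limma adjusted p = 0.319). Another Hmgb2 probe set of nearly the same brightness differed by 0.12 (SE 0.09) and a dim one by -0.04 (SE 0.06), both with overlapping groups.

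The kinase Cdk1 and the cyclins Ccnb2 and Ccna2 were also higher in the knockout arrays. Cdk1, the kinase that drives entry into mitosis, was at 6.78 and 7.02 in the NestinCre control, 7.09 and 7.01 in the Flox control, and 7.27 and 7.56 in the knockout. The groups did not overlap, and the knockout was 0.44 higher (SE 0.11; limma adjusted p = 0.309). Ccnb2, a B-type cyclin partner of Cdk1, was at 6.67 and 6.70, 6.79 and 6.69, and 6.95 and 6.81. Its lower knockout array was 0.01 above the highest control array, and the average difference was 0.16 (SE 0.07; limma adjusted p = 0.461). Ccna2, the cyclin of S and G2 phase, was 0.21 higher (SE 0.12; limma adjusted p = 0.601), and its second, dimmer probe set was 0.26 higher with a smaller SE of 0.05.

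Members of the chromosomal passenger complex, which corrects the attachment of chromosomes to the spindle, differed by 0.05 to 0.52 at their brightest probe sets. Subunits of this complex were not tested against each other. Cdca8, its subunit borealin, had the largest difference of any member: 7.69 and 8.0 in the NestinCre control, 7.99 and 7.93 in the Flox control, and 8.43 and 8.42 in the knockout. Both knockout arrays were above the controls by 0.52 on average (SE 0.10; limma adjusted p = 0.228), or 1.44-fold. That value came from the brightest of 3 probe sets, whose identifier suffix (_s_at) marks probes shared with other transcripts, and the dimmer probe sets of Cdca8 differed by -0.07 and 0.18. Birc5, survivin, was at 7.0 and 7.27, 7.03 and 7.35, and 7.5 and 7.65, above all controls in the knockout by 0.42 (SE 0.13; limma adjusted p = 0.372). Aurkb, the kinase of the complex and among the dimmest members, was at 6.13 and 6.03, 5.90 and 6.13, and 6.07 and 6.11, and its groups overlapped with a difference of 0.05 (SE 0.08), which was -0.01 without Flox control replicate 1.

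Among the mitotic kinases, Plk1, which acts on centrosomes and in cell division, was at 6.46 and 6.68 in the NestinCre control, 6.98 and 6.54 in the Flox control, and 7.01 and 6.99 in the knockout. The knockout arrays were the highest, but Flox control replicate 1 lay 0.01 below the lower of them, and the difference was 0.34 (SE 0.14; limma adjusted p = 0.484). Ttk, the Mps1 kinase of the spindle checkpoint, was at 6.14 and 6.41, 6.29 and 6.38, and 6.68 and 6.46, a difference of 0.27 (SE 0.11; limma adjusted p = 0.471). Its second, dimmer probe set had the smallest p of all 85 probe sets and was chosen for mention after its values were seen: 5.82 and 5.97, 5.83 and 5.75, and 6.33 and 6.31. There the knockout arrays were 0.48 higher (SE 0.06; limma adjusted p = 0.176). With an intensity trend in the limma variance the adjusted p was 0.0380, and over 14 alternatives it ran from 0.0330 to 0.730.

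The other checkpoint and spindle kinases differed by less, and their groups overlapped at the brightest probe set. Aurka, the centrosome kinase, was at 6.44 and 6.36 in the NestinCre control, 6.60 and 6.61 in the Flox control, and 6.50 and 6.57 in the knockout. The knockout arrays lay between the 2 control groups, 0.04 (SE 0.05) above their average. Bub1, a checkpoint kinase and one of the dimmest members, was at 5.83 and 5.80, 5.72 and 6.03, and 5.95 and 6.04, and its groups overlapped, with a difference of 0.15 (SE 0.10; limma adjusted p = 0.663). Bub1b, the related checkpoint protein BubR1, differed by 0.14 (SE 0.16), and its second probe set, at 6.80 and 6.56, 6.64 and 6.88, and 6.89 and 7.02, had both knockout arrays above all controls by 0.23 (SE 0.11; limma adjusted p = 0.526).

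Of the genes that act in exit from mitosis, Ube2c, the ubiquitin-conjugating enzyme of the anaphase-promoting complex, was at 7.26 and 7.41, 7.57 and 7.49, and 7.56 and 7.80. Knockout replicate 2 was the highest array, while knockout replicate 1 lay just below Flox control replicate 1, and the difference was 0.24 (SE 0.09; limma adjusted p = 0.436). Cdc20, an activator of the same complex, differed by 0.14 (SE 0.10). Kif20a, a kinesin of the central spindle, was at 6.85 and 7.04, 6.86 and 6.78, and 7.05 and 7.09. Its lower knockout array exceeded NestinCre control replicate 2 by 0.01, and the difference was 0.19 (SE 0.07; limma adjusted p = 0.442).

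At their brightest probe sets the remaining spindle and centromere genes ranged from -0.06 to 0.39 and none had an unadjusted p under 0.05. Cenpe, a kinetochore motor, had narrow groups at 6.50 and 6.51, 6.41 and 6.45, and 6.57 and 6.58. The knockout arrays were on top by 0.11 (SE 0.04; limma adjusted p = 0.475). The spindle proteins Tpx2, Prc1 and Kif11 differed by 0.39 (SE 0.29), 0.30 (SE 0.17) and 0.28 (SE 0.13), with overlapping groups, and another, dimmer probe set of Tpx2 was below all controls at -0.15 (SE 0.06). Nusap1, another spindle protein, differed by 0.01 (SE 0.14), Cenpa, the centromeric histone, by -0.01 (SE 0.13) and Cenpf, a kinetochore protein and the dimmest G2/M gene, by -0.06 (SE 0.07). A second, dimmer Cenpa probe set was at 5.86 and 5.91, 5.89 and 5.82, and 6.04 and 6.05, with both knockout arrays above all controls by 0.18 (SE 0.05; limma adjusted p = 0.328). The second probe sets of Cenpa and Bub1b and the dimmer one of Tpx2 were chosen after their values were seen.

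**Figure D2:**
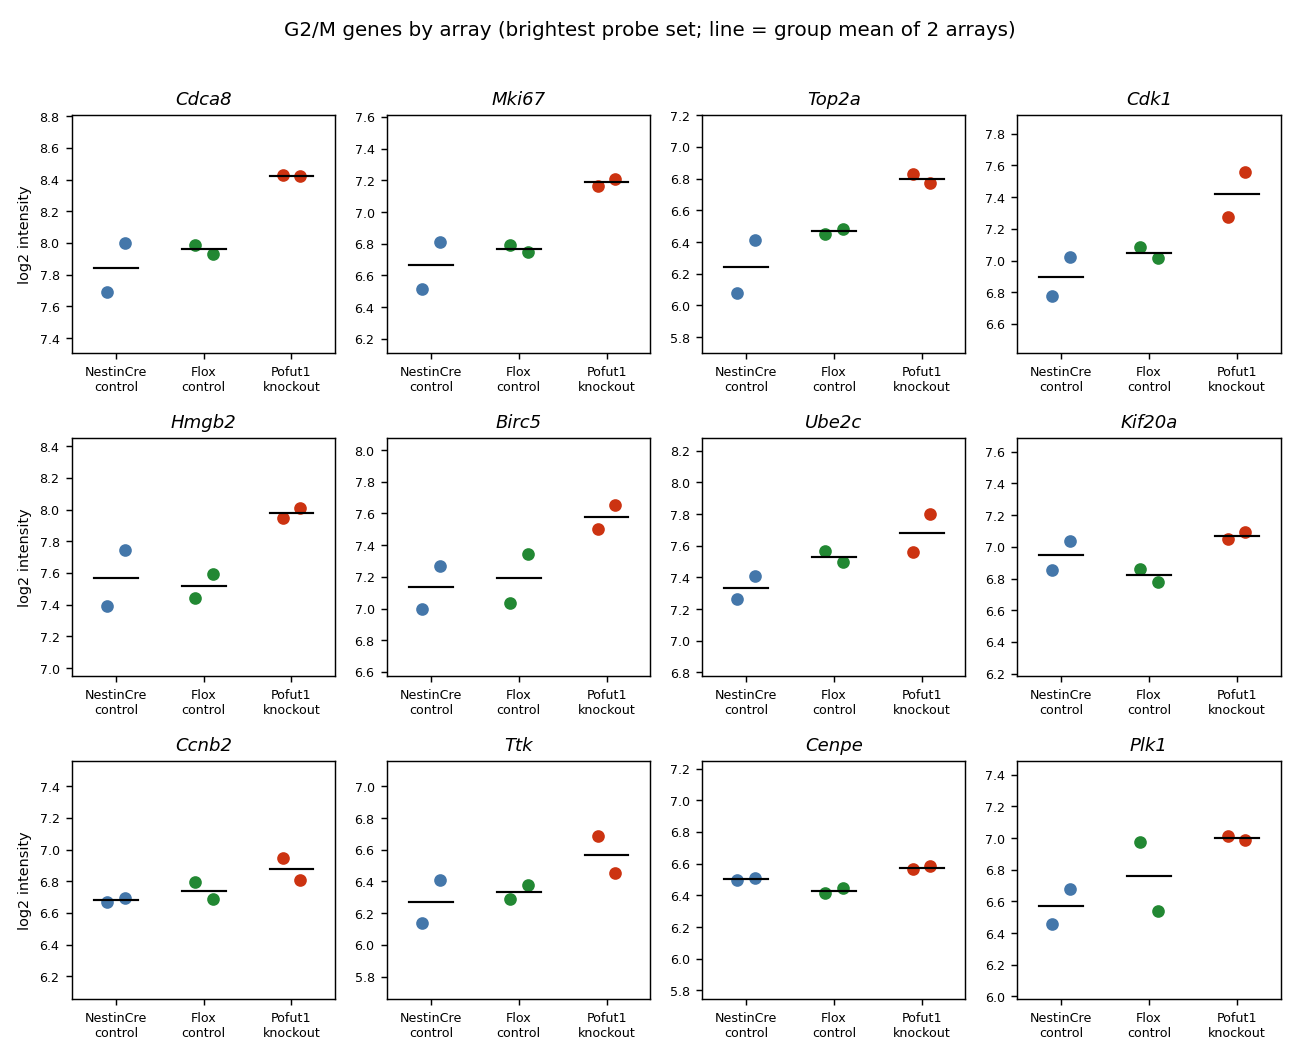
Each panel shows 1 G2/M gene, with log2 intensity on the vertical axis, 1 point per array, and a line at the mean of the 2 arrays of a group. The 12 genes are those with the smallest limma p, every panel spans 1.5 log2 units around its own values, and in all but Ube2c both knockout points lie above the 4 control points.

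Among the S phase genes, the subunits of the Mcm2 to Mcm7 helicase, which unwinds DNA at replication forks, held the lowest values. Mcm4 was at 9.23 and 9.38 in the NestinCre control, 9.55 and 9.42 in the Flox control, and 9.09 and 9.11 in the knockout. Both knockout arrays were below all controls, with a log2 difference of -0.29 (SE 0.07; limma adjusted p = 0.284). This came from a probe set with the suffix _x_at, which also marks probes shared between transcripts, and the other Mcm4 probe set was at 8.55 and 8.67, 8.52 and 8.76, and 8.6 and 8.65, with overlapping groups and almost no difference in mean.

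Mcm5 was at 8.18 and 7.93, 8.35 and 8.13, and 7.91 and 7.89. The knockout arrays were the lowest, the higher of them 0.02 below NestinCre control replicate 2, and the difference was -0.25 (SE 0.10; limma adjusted p = 0.480). This probe set too has the suffix _x_at. The next brightest Mcm5 probe set differed by -0.13 (SE 0.15) and a dim one by -0.02 (SE 0.06), both with overlapping groups. Mcm2 was at 7.49 and 7.26, 7.69 and 7.36, and 6.98 and 7.29, a difference of -0.31 (SE 0.15; limma adjusted p = 0.527). Knockout replicate 1 was the lowest array for Mcm2, and knockout replicate 2 lay inside the controls. The Mcm2 value came from a probe set with the suffix _s_at, and the other Mcm2 probe set differed by -0.09 (SE 0.16) with overlapping groups.

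At its brightest probe set Mcm6 set the controls apart more than the knockout, at 7.61 and 7.55 in the NestinCre control, 8.31 and 8.02 in the Flox control, and 7.65 and 7.82 in the knockout. The knockout arrays lay between the 2 controls, and the difference from their average was -0.13 (SE 0.10). A second Mcm6 probe set of nearly the same brightness gave 0.25 in the opposite direction, and its NestinCre minus Flox difference was -0.17 (SE 0.16). Mcm7, among the brightest members, differed by 0.05 (SE 0.06) and Mcm3 by -0.08 (SE 0.12), both with overlapping groups.

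Pcna, the sliding clamp that holds polymerases on DNA, was the brightest member, at 11.22 and 11.28, 11.25 and 11.33, and 11.22 and 11.48. Knockout replicate 2 was the highest array and knockout replicate 1 was level with the lowest control, so the difference of 0.08 (SE 0.09) was within the spread, and it was -0.05 without knockout replicate 2. The ribonucleotide reductase subunits, which make deoxynucleotides, differed by -0.19 (Rrm1, SE 0.10) and -0.17 (Rrm2, SE 0.14). Rrm1 was at 8.58 and 8.53, 8.73 and 8.57, and 8.27 and 8.56, low on knockout replicate 1 alone. Rrm2 was at 8.91 and 9.36, 9.19 and 9.20, and 8.94 and 9.06, and its groups overlapped.

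Cdc6, which loads the Mcm helicase and was the dimmest of all members, was at 5.81 and 5.76, 5.60 and 5.81, and 5.68 and 5.61. Its groups overlapped, with a difference of -0.10 (SE 0.08). Tyms, which makes thymidylate, differed by 0.08 (SE 0.09). The E cyclins, which act with Cdk2 at the start of S phase, differed by -0.04 (Ccne1, SE 0.06) and -0.10 (Ccne2, SE 0.13), all with overlapping groups.

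**Figure D3:**
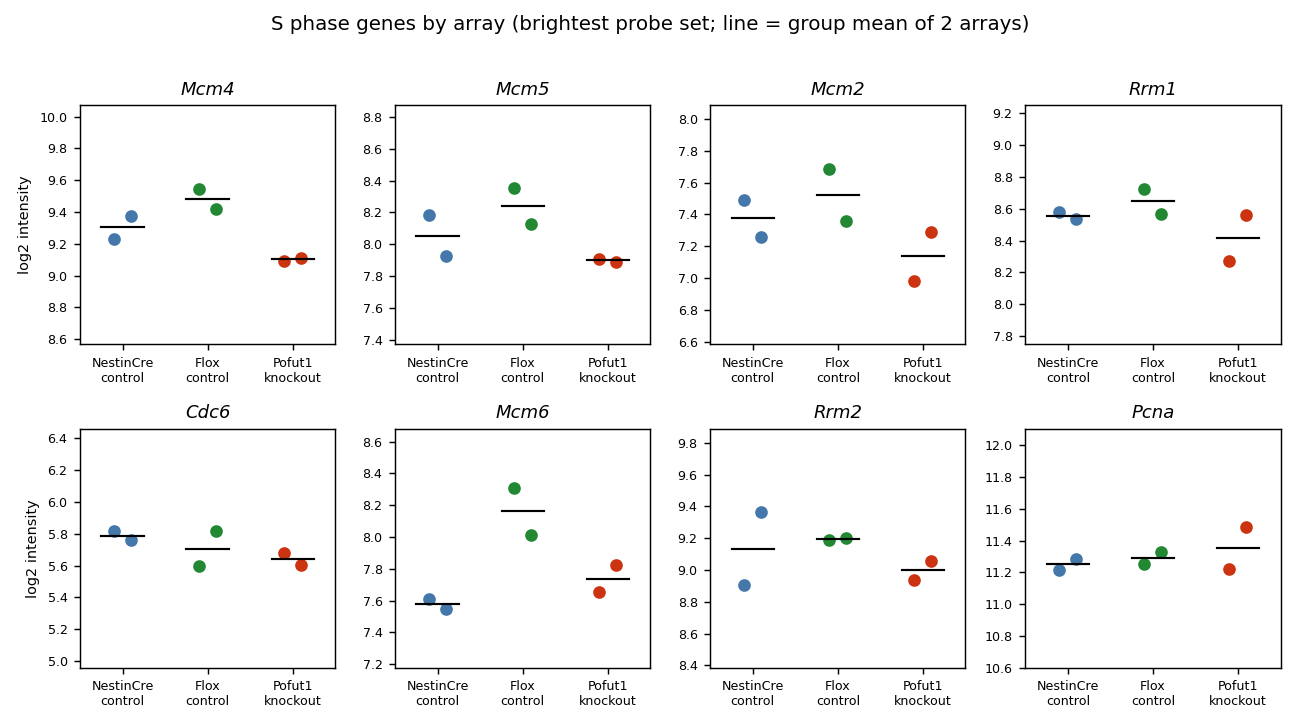
Each panel shows 1 S phase gene, with log2 intensity on the vertical axis, 1 point per array, and a line at the mean of the 2 arrays of a group. The 8 genes are those with the smallest limma p and every panel spans 1.5 log2 units, and the knockout points lie below all controls for Mcm4 and Mcm5 only.

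The 2 classes differed in brightness. Of the 13 S phase genes, 9 exceeded the median of all probe sets (7.35), at a median percentile of 65.9 (range 17.4 to 93.5). Of the 24 G2/M genes, 5 exceeded it, at a median percentile of 40.8 (range 21.1 to 60.2), so most of them were measured in the dimmer part of the range. Pcna, Ccne1, Mcm7 and Mcm4 were the brightest members and Cdc6, Cenpf, Bub1 and Aurkb the dimmest. The 5 brighter G2/M genes were all above 0 in the knockout with a median difference of 0.39, and 17 of the 19 dimmer ones were above 0 with a median of 0.16. Brightness was the mean over all arrays, knockout included, so this split partly depends on the difference itself. The median of 0.39 was the value of Tpx2 (SE 0.29), whose mean was 7.38 over all arrays but 7.26 over the controls, below 7.35. Cdca8, Hmgb2, Ube2c and Ccna2 exceeded 7.35 in the controls too. The medians of 0.39 and 0.16 therefore cannot show whether the difference goes with brightness. Over the 5320 genes within the brightness range of the G2/M genes, 2016 were above 0 and the median was -0.04.

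Probe sets of 1 gene did not always go the same way. Of the 17 G2/M genes with several probe sets, 9 had all of them above 0, none had all below, and 8 were mixed. Of the 10 such S phase genes, 5 had all probe sets below 0, none had all above, and 5 were mixed. For 8 of 13 S phase genes and 4 of 24 G2/M genes the brightest probe set had a suffix (_x_at or _s_at) that marks probes shared between transcripts. When such probe sets were left out, an alternative chosen after the data were seen, 4 of 13 S phase genes were above 0 with a median of -0.09 and none was lower at an unadjusted p under 0.05, and 20 of 23 G2/M genes were above 0 with a median of 0.21 and 7 were higher at that level. Mcm6 (0.25) and Cdca8 (-0.07) changed sign. The share of all genes at that level without such probe sets is not given.

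The knockout was next compared with each control alone. These comparisons share the knockout arrays, and each control also enters the comparison between controls, so the values are set side by side only. Against the NestinCre control, which also carries Cre, 23 of 24 G2/M genes were above 0 with a median of 0.22 (all genes -0.0019), and 6 of 13 S phase genes were above 0 with a median of -0.03. Limma called 0% of probe sets after adjustment. With the unadjusted p, 8 G2/M genes and no S phase gene passed 0.05 upward, and no member did so downward, where 3.23% of all genes were higher and 2.89% lower. Both knockout arrays exceeded both NestinCre arrays for 18 of the 24 G2/M genes, where 16% of all genes were separated upward and 16.2% downward. Of the S phase genes, 2 were separated upward and 3 downward. The smallest p values belonged to Cdca8 (0.58), Mki67 (0.52), Top2a (0.56), Cdk1 (0.52) and Ube2c (0.34), with limma adjusted p from 0.499 to 0.749. The count of 8 fell without NestinCre control replicate 1, a fit for which the share of all genes is not given. The S phase median was 0.0031 without knockout replicate 1, -0.06 without NestinCre control replicate 2 and -0.11 without knockout replicate 2.

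Against the Flox control, 21 of 24 G2/M genes were above 0 with a median of 0.18, and 3 of 13 S phase genes were above 0 with a median of -0.20 (all genes -0.04). Limma called 0.00444% of probe sets after adjustment, none of them a member. At an unadjusted p under 0.05, 8 G2/M genes were higher, where 4.75% of all genes were, and 3 S phase genes were lower, where 10% of all genes were. The groups did not overlap for 13 G2/M genes upward (15.5% of all genes) and 8 S phase genes downward (30.3% of all genes), and among the others Mcm7 lay upward and Cenpf and Aurka downward. Mcm4 (-0.38), Cdca8 (0.46), Mki67 (0.42), Mcm6 (-0.43) and Hmgb2 (0.46) had the smallest p values, with limma adjusted p from 0.162 to 0.227. Other probe sets of these genes differed by -0.02 (Mcm4), -0.21 and 0.02 (Cdca8), 0.17 and 0.01 (Mcm6) and -0.0021 and -0.12 (Hmgb2), and Mki67 had no other. These counts were unstable: the 8 fell when either Flox control array or either knockout array was left out, and with sex as a covariate. The 3 lower S phase genes became fewer without Flox control replicate 1 and more without Flox control replicate 2. The share of all genes in those fits is not given. The median of the 13 S phase genes was -0.10 without knockout replicate 1.

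The controls also differed from each other. In the NestinCre control minus the Flox control, 6 of 24 G2/M genes were above 0 with a median of -0.11, and 3 of 13 S phase genes with a median of -0.14, where the median over all genes was -0.04. Limma called 0% of probe sets after adjustment. At an unadjusted p under 0.05, Mcm6 (-0.58, SE 0.12; limma adjusted p = 0.378), Aurka (-0.20, SE 0.06) and Ccne1 (-0.20, SE 0.06) were lower and no member was higher, where 7.07% of all genes were lower and 2.08% higher. Cenpf (-0.21) and Mcm4 (-0.18) followed with unadjusted p above 0.05. The 2 NestinCre arrays lay below both Flox arrays for 4 G2/M and 4 S phase genes, where 30.4% of all genes were separated downward and 11% upward. At the brightest probe sets, the Mcm6 difference between controls was larger than any member's difference between knockout and both controls. It rested on 1 Mcm6 probe set (suffix _x_at). The second, of nearly the same brightness, differed by -0.17 (SE 0.16) between controls and the third, a dim one, by -0.04 (SE 0.06). The count of 3 rose without NestinCre control replicate 2, a fit for which the share of all genes is not given. The G2/M median was -0.03 without NestinCre control replicate 1 and -0.17 without NestinCre control replicate 2. The S phase median was -0.07 without Flox control replicate 1 and -0.08 without NestinCre control replicate 2.

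**Figure D4:**
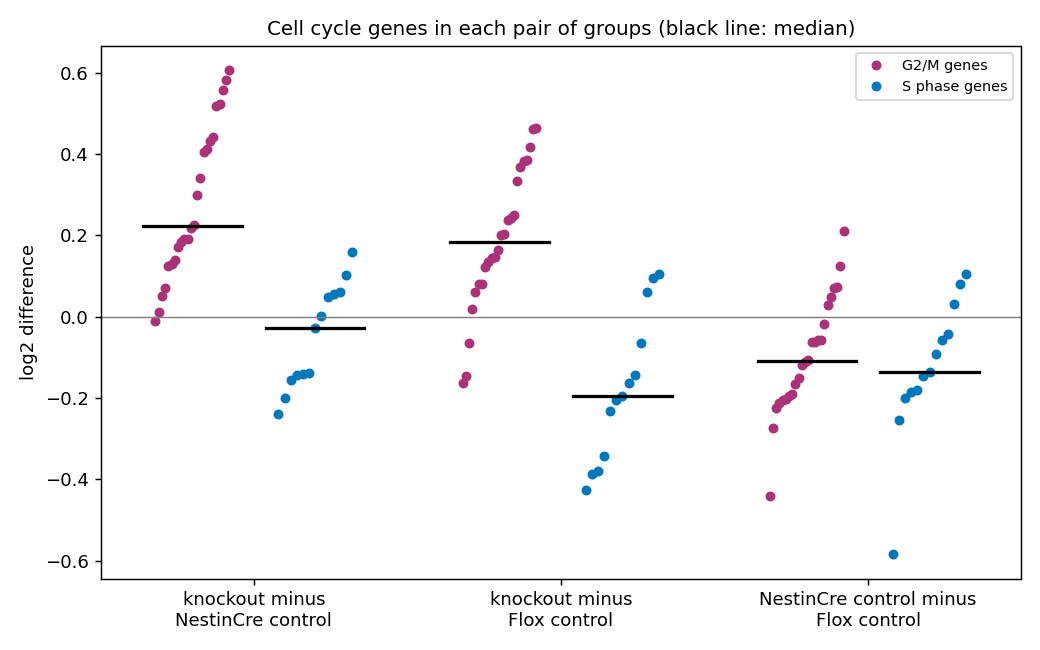
The vertical axis is the log2 difference of each gene for the pair of groups named under it, sorted within each class, and black lines are medians. The G2/M medians are 0.22, 0.18 and -0.11 from left to right and the S phase medians are -0.03, -0.20 and -0.14, and the lowest point on the right is Mcm6.

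Other genes of the cell cycle were taken from lists of names. Of 56 further mitotic genes measured of 60 listed, 33 were above 0 with a median of 0.04. Against the NestinCre control alone 10 were higher at an unadjusted limma p under 0.05, where 3.23% of all genes were. Against the Flox control alone 2 were higher, where 4.75% of all genes were. Against both controls together 7 were higher at that level, where 4.16% of all genes were, and none was lower. They were Ckap2 (0.25, SE 0.05), Aspm (0.25, SE 0.06), Cep55 (0.54, SE 0.13), Kif23 (0.26, SE 0.07), Pbk (0.50), Cdca3 (0.30) and Spag5 (0.40), of which the last 3 are named because the count is small. Cep55, which acts in the final cut between daughter cells, was at 5.73 and 5.82, 6.05 and 6.44, and 6.65 and 6.46, so its groups did not overlap but the lower knockout array was 0.02 above Flox control replicate 2. As a list the 56 genes did not separate the knockout. Their median by array, with each gene's mean subtracted, was 0.02 and 0.06 in the knockout, -0.05 and -0.05 in the NestinCre control, and 0.00072 and 0.04 in the Flox control. Their summed intensity was 20937 to 22713, 22732 to 22836 and 18394 to 21462 in the same order.

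Of 30 further replication genes measured of 33, 18 were above 0 with a median of 0.02. At an unadjusted limma p under 0.05, 1 was higher and 1 lower, where 4.16% of all genes were higher and 6.45% lower. Cdc7, the kinase that fires replication origins, was higher by 0.27 (SE 0.05; limma adjusted p = 0.242), and Orc2, a subunit of the origin recognition complex, was lower with a difference of -0.13 (SE 0.05; limma adjusted p = 0.420). Dbf4, the partner of Cdc7, differed by 0.13 (SE 0.09) and the chromatin assembly subunit Chaf1b by -0.14 (SE 0.09).

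The regulators of entry into the cycle were near the median of all genes. Of 19 genes, among them G1 cyclins, G1 kinases, the E2F and Rb families, Myc and Mycn, 7 were above 0 with a median of -0.01. At an unadjusted limma p under 0.05, 1 was higher, where 4.16% of all genes were, and none was lower. This gene, E2f8, an atypical repressor E2F, was 0.31 higher (SE 0.09; limma adjusted p = 0.340). E2f7, E2f1 and E2f5 differed by -0.26 (SE 0.10), -0.20 (SE 0.08) and -0.18 (SE 0.07), none at an unadjusted p under 0.05. Of 14 inhibitors and quiescence genes measured of 15, 4 were above 0 with a median of -0.04. At that level 1 of them was lower, where 6.45% of all genes were, and none was higher. Cdkn1b, the inhibitor p27 and a bright transcript at 11.42 to 11.61, differed by -0.13 (SE 0.05; limma adjusted p = 0.430), and Cdkn2b, Cdkn1c and Ccng2 differed by -0.14, -0.15 and 0.07.

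Among marker lists of cell types that divide in the adult brain, the microglia and neural stem lists separated the knockout from the controls and the oligodendrocyte precursor and neuroblast lists overlapped, and their part in the cell cycle values was not tested. All 19 measured microglia and macrophage markers of 20 were above 0, with a median of 0.30. At an unadjusted limma p under 0.05, 10 were higher, where 4.16% of all genes were. The summed intensity of these markers was 17983 to 18234 in the NestinCre control, 18551 to 19582 in the Flox control and 21000 to 21493 in the knockout. Aif1 (0.70, SE 0.06), Ptprc (0.70, SE 0.09), Tyrobp (0.48, SE 0.07) and Fcer1g (0.46, SE 0.09) led them, with limma adjusted p from 0.0978 to 0.242. For comparison, the summed intensity of the 24 G2/M genes was 2554 to 2894, 2799 to 3032 and 3391 to 3424 in the same groups.

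Of 12 oligodendrocyte precursor markers measured of 13, 8 were above 0 with a median of 0.09, and their sum was 9653 to 10277, 9969 to 11613 and 10859 to 11149. At an unadjusted limma p under 0.05, 3 were higher and 1 was lower, where 4.16% of all genes were higher and 6.45% lower. Vcan (0.72, SE 0.11), Olig1 (0.27, SE 0.08) and Gpr17 (0.61, SE 0.22) were higher and Bcan was at -0.42 (SE 0.11). Neural stem and progenitor markers were lower: 3 of 14 measured of 15 were above 0 and the median was -0.22. At an unadjusted limma p under 0.05, 6 were lower, where 6.45% of all genes were. The sum of the 14 was 12733 to 13951, 13677 to 15397 and 12545 to 12691. Hes5, a Notch target of progenitors and astrocytes, was at -1.38 (SE 0.14), Thbs4 at -0.86 (SE 0.14), Sox21 at -0.43 (SE 0.10) and Eomes, of intermediate progenitors, at -0.24 (SE 0.04).

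Of 13 neuroblast markers, 4 were above 0 with a median of -0.06, and their sum was 25040 to 27791, 26989 to 27424 and 26276 to 26630. At an unadjusted limma p under 0.05, 1 (Igfbpl1, -0.45, SE 0.13) was lower, where 6.45% of all genes were, and none was higher. Of 13 lymphocyte markers measured of 16, 6 were above 0 with a median of -0.0047 and sums of 1597 to 1699, 1800 to 1822 and 1442 to 1671. Only Cd4, at -0.29 (SE 0.07), was lower at that level, and none was higher. The 4 measured erythroid markers of 9 were near the lower end of the scale, with sums of 216 to 222, 216 and 217 to 223 and a median of 0.02. All 10 pituitary markers measured of 12 were below 0 with a median of -0.05, and their sum was 1245 to 1419, 1835 to 3066 and 1412 to 1468.

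**Figure D5:**
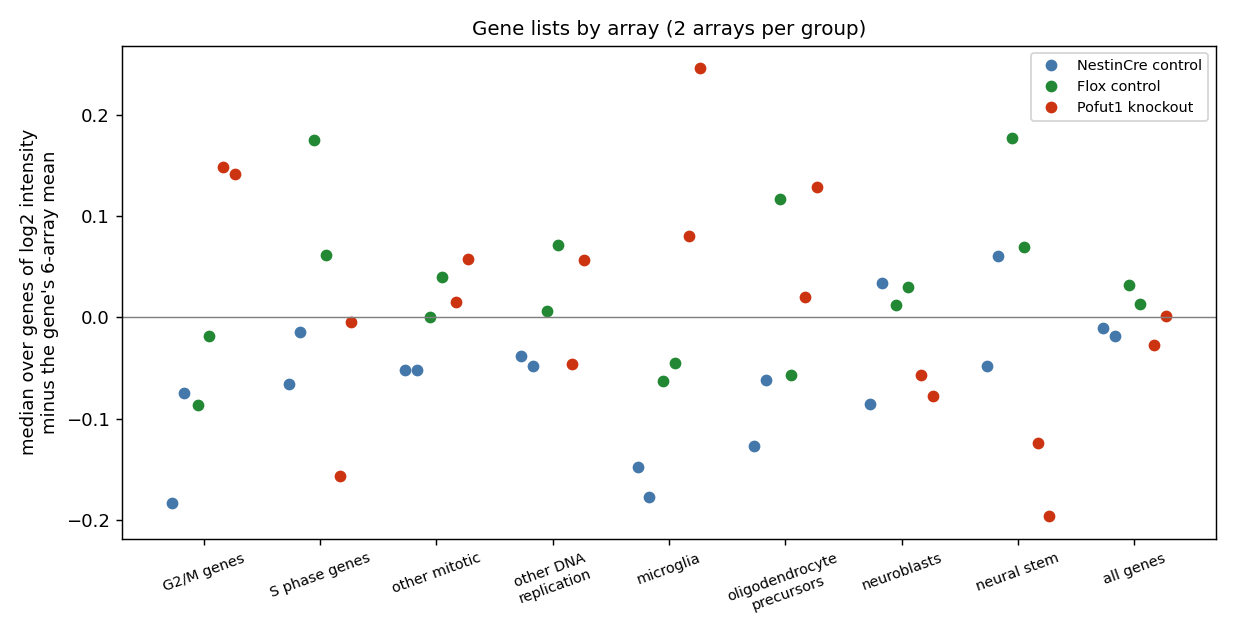
The vertical axis is, for each array and gene list, the median over genes of the log2 intensity after each gene's mean over the 6 arrays is subtracted, with 1 point per array. The G2/M genes and the microglia markers have both knockout arrays above all 4 controls, the neural stem markers have both below, and the S phase genes and the other mitotic genes overlap.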

How the data were processed

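RNA from 6 brain samples was hybridised to 1 array each. Each deposited value is a linear intensity for 1 probe set on 1 array. Per the submitters' processing notes, which give no role or order, the authors' tools include GCOS and RMA (version and settings not given in the sources used here). RMA as usually run subtracts background and gives all arrays a common distribution, which compresses differences of dim probe sets. The labels do not say which animals the arrays came from, so the spread behind a p-value is that between these samples. The NestinCre control and the knockout each hold a female and a male array, so the spread within these groups includes differences between animals and sexes. Both Flox control arrays were female, and the spread between them may be technical. Precision is limited by having 2 arrays per group.

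The table held 45101 probe sets. The 64 controls were left out, and 34945 of the remaining 45037 had 1 gene symbol, 932 had several and 9160 had none listed. Log2 of each intensity was taken, and a mean per group was fitted in limma 3.58.1 (R 4.3.3; lmFit and eBayes without trend) over all 6 arrays, with 3 residual degrees of freedom and 4.94 after moderation. Benjamini-Hochberg adjustment covered all 45037 probe sets at a threshold of 0.05. The code was tested on simulated data. Each SE belongs to a limma log2 difference, and a count at an unadjusted p under 0.05 is a description. Promoters were RefSeq sequences of GRCm38.p6.

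The members, lists, tests and alternatives were chosen with earlier results of these data known. The text names the 12 G2/M and 8 S phase genes with the smallest p against both controls, Mki67, Top2a, Cdk1, Pcna and Mcm2 always, the 5 members with the smallest p in each other comparison, up to 4 genes per list, and the 4 brightest and 4 dimmest members; the other members are named with values for completeness, after their values were seen. Alternatives were repeated quantile normalization, median centring, 2 filters on dim probe sets, 2 variance trends, the groups compared alone, a replicate block, sex as a covariate, female arrays alone, an offset of 16, the mean of all probe sets, and leaving out each array.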

Additional observations from a re-analysis of the deposited data

How the results depend on the processing

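No alternative but 2 gave a member probe set past the adjusted threshold, and the median difference of the G2/M genes kept its sign in every setting tried. Against both controls, 292 of 296 values of 26 named genes kept their sign under the 12 alternatives other than leaving out an array, none had an adjusted p under 0.05, and 3 of 156 values with 1 array left out changed sign. With 2 arrays per group and most G2/M probe sets below the median intensity, no member difference passed the adjusted threshold in the main setting. That holds for the largest as well, Cdca8 at 0.52.

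With only probe sets whose highest group mean exceeded the overall median, the members higher at an unadjusted limma p under 0.05 numbered 4 against both controls, 5 against NestinCre and 4 against Flox, the G2/M medians were 0.42, 0.44 and 0.37, and 1 member was lower between controls. This filter admits genes because they are high in 1 group: Cdk1 and Birc5 passed through the knockout mean alone, so these counts and medians are partly set by the filter and support nothing. The count between controls was also 1 with only probe sets above the 25th percentile. With an intensity trend, robust or not, 1 member probe set, the second of Ttk, passed the adjusted threshold against both controls and against Flox, and without the robust step 5 members were higher against Flox. With sex as a covariate 2 were higher and 1 lower against Flox. Female arrays alone leave a lone array in the NestinCre and knockout groups. There the S phase median against both controls was -0.024 and Rrm2 turned to 0.0081. The medians against NestinCre were 0.32 (G2/M) and 0.081 (S phase, sign turned). In the same arrays the S phase median against Flox was -0.10, and the G2/M median between controls was -0.17. With an offset of 16, 1 member was lower against NestinCre. With the mean of all probe sets the G2/M medians were 0.17 against both controls and 0.12 against Flox, and Mcm6 turned to 0.051. Without _x_at and _s_at probe sets, an alternative chosen after seeing the data, no member was lower against both controls, 1 was lower against Flox, and Mcm6 (0.25) and Cdca8 (-0.074) changed sign. The counts of members in this paragraph stand without the share of all genes in the same setting, so they cannot be set against a background.

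Replicate numbers gave no pairing: the correlation of deviations was 0.19 between the controls, -0.31 between NestinCre and knockout and -0.24 between Flox and knockout. With the replicate block 2 members were lower against both controls in place of 1, 7 were higher in place of 8, and no member probe set passed. The share of all genes with the block is not given.

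With 1 array left out, where the lone array of its group is assumed to vary like the others, the members higher numbered 5 to 9 against both controls, 3 to 10 against NestinCre, 2 to 6 against Flox and 0 to 1 between controls. Those lower numbered 1 to 3, 0 to 2, 1 to 5 and 2 to 6. The G2/M median ran from 0.19 to 0.28, 0.20 to 0.33, 0.18 to 0.25 and -0.17 to -0.030, and the S phase median from -0.22 to -0.042, -0.11 to 0.0031, -0.26 to -0.10 and -0.17 to -0.072. Among named genes, the signs that turned were those of Aurkb (-0.011 to 0.10), Pcna (-0.051 to 0.21) and Cenpf (-0.15 to 0.040).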
